A study of Homo sapiens with 12 samples.

Results

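RBM5, NCOA5, JMJD4 and CRAMP1 are 4 human genes whose estimated counts were examined transcript by transcript in HEK293, an embryonic kidney cell line. The members are all transcripts that GENCODE 29 gives to these genes in the deposited transcript table, which makes 43 of the 188753 transcripts listed, and 4 of the 36459 gene symbols in the gene table. RBM5 has 26 of them, CRAMP1 has 8, JMJD4 has 7 and NCOA5 has 2. The cells were cultured in 4 conditions with 3 libraries each. They received oleic acid together with ferric ammonium citrate (OA+FAC), ferric ammonium citrate alone (FAC), oleic acid alone (OA) or vehicle. Ferric ammonium citrate is an iron salt that the series uses to induce ferroptosis, an iron-dependent form of cell death marked by lipid peroxidation, and oleic acid is a monounsaturated fatty acid. All groups share the same unmodified cell line, and no group received ammonium citrate without iron. The labels state neither doses nor treatment times.

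RBM5 is an RNA-binding protein that regulates splicing, with FAS and CASP2 among its known targets. NCOA5 is a coactivator of nuclear receptors. JMJD4 belongs to the JmjC hydroxylases, which use iron and 2-oxoglutarate, and it hydroxylates the translation termination factor eRF1. CRAMP1 is a chromatin protein that acts on linker histone genes. A gene's transcripts can differ in their first exon, in an alternative exon or in an intron that stays in the mature RNA, and a retained intron often carries a stop codon that ends the reading frame early. A short read that fits several transcripts of a gene is divided between them by estimation, so a transcript's estimated count is better determined where the transcript has sequence of its own.

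RBM5 lies at chr3:50088908-50119021 on the plus strand (GRCh38). Its main transcript, RBM5-201, has 25 exons, 3188 bases and 2445 coding bases. RBM5-212 (5616 bases) is annotated as a retained-intron transcript and keeps the 2477 bases between exons 6 and 7 of RBM5-201, at chr3:50100606-50103082. It also holds an extra exon of 70 bases at chr3:50107018-50107087. The sequences are shown because they are what tells the 2 transcripts apart, and they come from the GENCODE 29 transcripts. Read in the frame of RBM5-201, with 483 coding bases ahead of the intron, the retained sequence reaches a TGA after 30 intron bases, directly after the capitals of the second line. Capitals mark exon 7 in the first line, the first 30 bases of the intron in the second, the last 30 bases of the intron in the third and the whole extra exon in the fourth.
RBM5-201, exon 6 to exon 7: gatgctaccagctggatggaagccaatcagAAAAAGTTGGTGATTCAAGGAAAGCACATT
RBM5-212, exon 6 into the intron: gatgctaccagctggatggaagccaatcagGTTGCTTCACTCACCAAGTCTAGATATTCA
RBM5-212, intron into exon 7: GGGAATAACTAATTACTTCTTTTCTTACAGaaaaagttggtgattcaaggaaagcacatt
RBM5-212, extra exon: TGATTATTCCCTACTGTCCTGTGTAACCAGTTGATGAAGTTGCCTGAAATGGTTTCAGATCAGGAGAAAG

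JMJD4 lies at chr1:227730425-227735411 on the minus strand. Its main transcript here, JMJD4-207, has 1251 coding bases, and JMJD4-201 and JMJD4-206 have 1389. JMJD4-202 lacks 48 bases, or 16 codons, from the end of exon 5, at chr1:227732881-227732928. The 3 lines show that stretch and the 2 junctions it gives. Capitals mark the bases absent from JMJD4-202 in the first line and the next exon in the other 2.
JMJD4-207, end of exon 5: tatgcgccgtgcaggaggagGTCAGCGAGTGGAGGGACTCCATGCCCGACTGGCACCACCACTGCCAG
JMJD4-207, junction: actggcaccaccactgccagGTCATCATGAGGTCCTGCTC
JMJD4-202, junction: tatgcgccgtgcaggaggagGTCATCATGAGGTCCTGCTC

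NCOA5 lies at chr20:46060985-46089952 on the minus strand, and CRAMP1 at chr16:1612325-1677908 on the plus strand. NCOA5-201 has 8 exons and 1737 coding bases. CRAMP1-201 and CRAMP1-202 have the same coding length of 3807 bases. CRAMP1-202 is 101 bases longer, mostly through an added first exon of 98 bases at chr16:1612325-1612422.

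The libraries held 14098216 to 18717397 counts. The third OA+FAC and the third OA library stood apart: their genes deviated from the group mean with an SD of 0.335 and 0.349 on the log2 scale, against 0.195 to 0.263 in the other 10. Across 13610 genes, which are not independent replicates, these deviations correlated with log2 transcript length at -0.46 in the third OA+FAC and -0.58 in the third OA library, so long transcripts read low there. This correlation was -0.29 in the third FAC library and in the first vehicle library, and it ran from -0.04 to 0.44 in the remaining 8. The labels do not say whether replicates were separate cultures, so p-values measure the spread between these libraries only. In bulk RNA, fewer cells of a type and less RNA per cell cannot be told apart.

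Of the 43 transcripts, 19 passed the filter on low counts in edgeR: 10 of RBM5, 5 of JMJD4, 3 of CRAMP1 and 1 of NCOA5. The 4 genes were selected on measured values, the transcript results of these same libraries. The comparisons behind that choice are not named, so all of them are given for the members as a description, with fold changes and standard errors from the fit over all features and without p-values. "Called" means a Benjamini-Hochberg adjusted p under 0.05 in edgeR's quasi-likelihood test over that whole table. Whether groups of libraries overlapped is given for the members only. How many of all transcripts or genes separate likewise was not counted, so separation is a description. In FAC against vehicle 1 of the 19 transcripts was called, JMJD4-207, which was lower, and 0.00777% of all transcripts tested were called. In OA+FAC against OA 2 were called, NCOA5-201 and CRAMP1-202, both lower, and 0.0117% of all transcripts were called. In OA+FAC against FAC and in the interaction CRAMP1-202 was called, and it was the only transcript called in each (0.00194%). RBM5-201 was called in none of these comparisons. At the gene level JMJD4 and NCOA5 were called lower in FAC against vehicle (1.19% of all genes called), and JMJD4, NCOA5 and RBM5 in OA+FAC against OA (2.21%).

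RBM5 was lower with FAC. The gene total measured 21.0, 40.8 and 20.5 CPM (counts scaled to library size by trimmed mean of M values, TMM) in FAC libraries, against 33.1, 54.9 and 49.8 CPM in vehicle libraries. The second FAC library lay above the lowest vehicle library, so these groups overlapped. With oleic acid present the totals were 17.6, 20.9 and 19.1 CPM in OA+FAC, against 46.1, 44.3 and 38.2 CPM in OA, and these groups did not overlap. The fitted log2 fold changes of the gene were -0.74 (SE 0.25) for FAC against vehicle and -1.16 (SE 0.25) for OA+FAC against OA. Without the second FAC library the first was -1.15 and the gene was called. The call in OA+FAC against OA held without the third OA library and was lost without any 1 of the other 5 libraries, with values from -1.23 to -1.10 over the 6 fits.

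**Figure D1:**
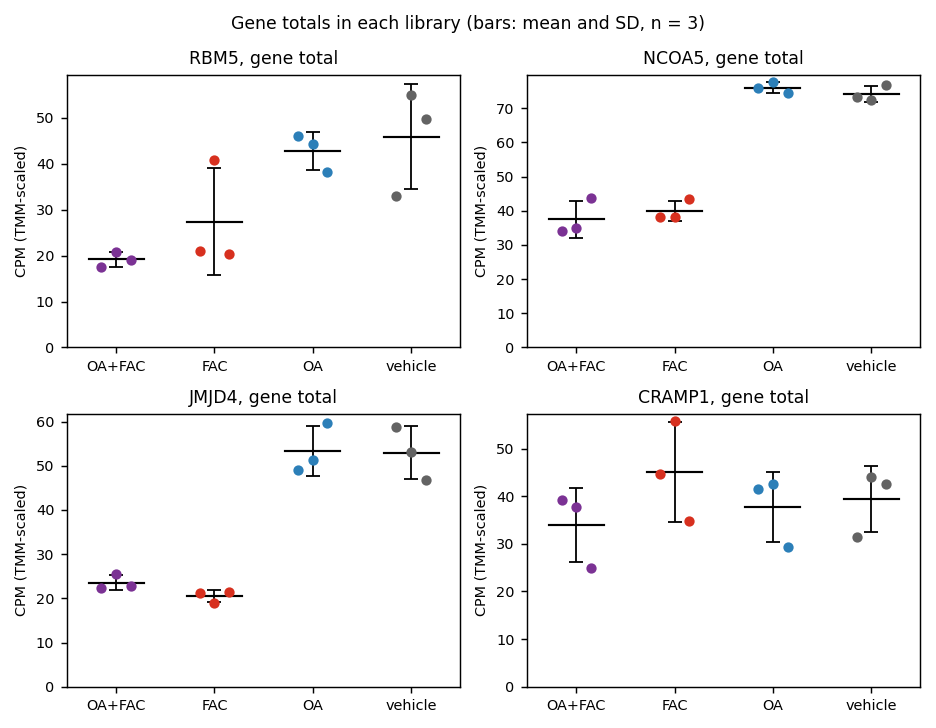
Gene totals in TMM-scaled CPM (vertical axes, linear, from 0) for each of the 12 libraries, by group, with the mean and SD of 3 libraries as bars. JMJD4 and NCOA5 lie lower in both groups with FAC than in both groups without it, the second FAC library stands high for RBM5 and CRAMP1, and the CRAMP1 groups overlap.

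The RBM5 decrease lay in RBM5-201, the spliced coding transcript. It measured 13.3, 14.3 and 9.49 CPM in FAC libraries, against 27.5, 40.8 and 35.9 CPM in vehicle libraries. In OA+FAC it measured 9.94, 11.6 and 10.1 CPM, against 32.3, 32.3 and 29.2 CPM in OA. Every library with FAC lay below every library without it. The log2 fold changes were -1.49 (SE 0.20) for FAC against vehicle and -1.57 (SE 0.20) for OA+FAC against OA. They kept their direction in every alternative fit, from -1.64 to -1.34 and from -1.64 to -1.53.

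RBM5-212, the transcript with the retained intron, did not follow RBM5-201. It measured 2.17, 9.72 and 5.10 CPM in FAC libraries, against 1.34, 2.91 and 2.14 CPM in vehicle libraries. In OA+FAC it measured 1.13, 4.04 and 2.63 CPM, against 1.53, 3.43 and 3.32 CPM in OA. The groups overlapped in both pairs. The log2 fold changes were 1.41 (SE 0.66) for FAC against vehicle and -0.09 (SE 0.65) for OA+FAC against OA. Without the second FAC library, which had 184 of the estimated counts of RBM5-212 against 33 and 85 in the other FAC libraries, the first was still above 0, and over the 6 fits without 1 library it ran from 0.77 to 1.79.

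Set against RBM5-201 within the same library, RBM5-212 was higher in the libraries with FAC. Its counts came to 16.3%, 68.1% and 53.8% of those of RBM5-201 in FAC, against 4.87%, 7.13% and 5.97% in vehicle, and these groups did not overlap. In OA+FAC they came to 11.4%, 34.8% and 26.0%, against 4.73%, 10.6% and 11.4% in OA, where the lowest OA+FAC library and the highest OA library met. The ratio falls as RBM5-201 rises by construction, and the counts of RBM5-212 ran from 19 to 184. RBM5-212 has 2604 stretches of 31 bases that RBM5-201 lacks, and RBM5-201 has 176 that RBM5-212 lacks. The share of all counts on transcripts annotated as retained introns was 2.87% in the second FAC library, 3.21% in the third OA+FAC and 3.07% in the third OA library, and 2.35% to 2.57% in the other 9.

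**Figure D2:**
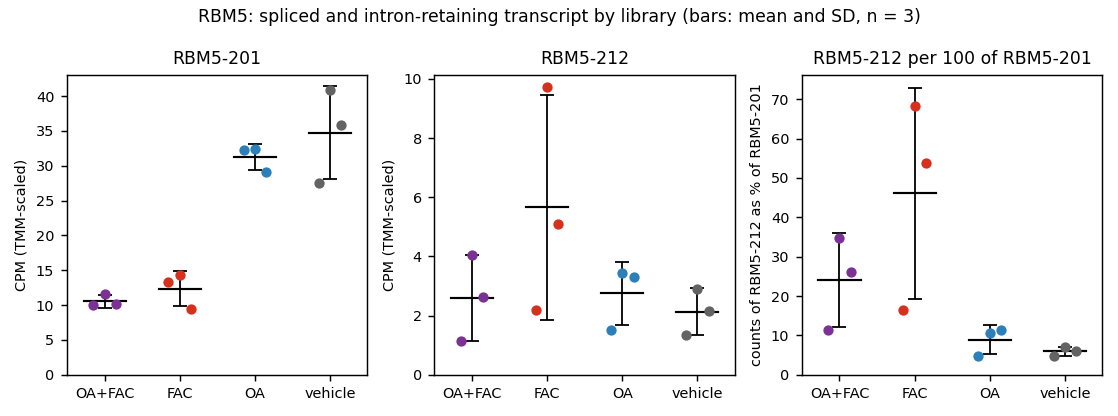
RBM5-201 and RBM5-212 in TMM-scaled CPM, and the counts of RBM5-212 as a percentage of those of RBM5-201, for each library, with the mean and SD of 3 libraries as bars. RBM5-201 separates libraries with and without FAC, RBM5-212 does not, and the percentage lies at 16.3% to 68.1% in FAC against 4.87% to 7.13% in vehicle.

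Other RBM5 transcripts cover parts of the same intron. RBM5-214, a transcript of 2716 bases with 429 of them coding, has 1589 bases in it, RBM5-226 has 746 and RBM5-211 has 357. RBM5-214 measured 2.37, 4.86 and 1.56 CPM in FAC, against 0.767, 2.27 and 2.09 CPM in vehicle, and 2.32, 0.577 and 0.830 CPM in OA+FAC, against 3.88, 0.599 and 0.517 CPM in OA. Its groups overlapped, and its log2 fold change for OA+FAC against OA, -0.42 (SE 0.91), was 1.15 without the first OA library. Together these transcripts and RBM5-212 summed to 4.80, 15.7 and 6.91 CPM in FAC, against 2.30, 6.58 and 5.72 CPM in vehicle. In OA+FAC they summed to 4.52, 6.05 and 4.29 CPM, against 6.40, 4.52 and 4.43 CPM in OA. The second FAC library stood above all others, and the remaining libraries overlapped between groups. The antisense gene RBM5-AS1 shares 1007 exonic bases with RBM5, its locus reaches into the start of the intron, and its level was not analysed here. Strand is not stated in the sources used here, so reads from overlapping genes on opposite strands cannot be told apart. RBM6, a relative and upstream neighbour on the same strand, shares 456 exonic bases with RBM5.

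By share of the gene's counts, RBM5-201 held 54.7% ± 0.234 in OA+FAC and 47.8% ± 14.1 in FAC, against 73.0% ± 3.78 in OA and 75.6% ± 4.41 in vehicle (SD, n = 3 each). RBM5-212 held 13.2% ± 6.45 in OA+FAC and 19.6% ± 8.07 in FAC, against 6.57% ± 2.89 in OA and 4.51% ± 0.698 in vehicle. Divided by transcript length, the share of RBM5-212 was 4.72% ± 2.63 in OA+FAC and 6.69% ± 2.65 in FAC, against 2.52% ± 1.37 in OA and 1.64% ± 0.257 in vehicle (SD, n = 3 each). Neither share by counts was called in the test of transcript usage, which sets a transcript's fold change against that of the gene's other tested transcripts. In FAC against vehicle 0.027% of all transcripts in that test were called. Summed over the gene, the transcripts that were lower in FAC than in vehicle (9 of them) gave -25.25 CPM, of which RBM5-201 gave -22.41, and those that were higher (10) gave 6.51 CPM, or 25.8% of the loss. This share rested on the second FAC library: without it the gains equalled 8.69% of the losses, and over the 6 results with 1 library left out they ran from 8.69% to 38.1%. In OA+FAC against OA the losses came to -24.81 CPM and the gains to 1.08 CPM, or 4.36%, with 3.73% to 8.47% when 1 library was left out. Leaving libraries out of these sums was chosen after seeing the data. For scale, RBM5 gains in OA against vehicle, where no member was called, came to 1.965 CPM and losses to -5.322 CPM. The remaining 23 RBM5 transcripts never exceeded 55 counts in a library, 11 of them never reached 10, and RBM5-207 was at 0 in every library.

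**Figure D3:**
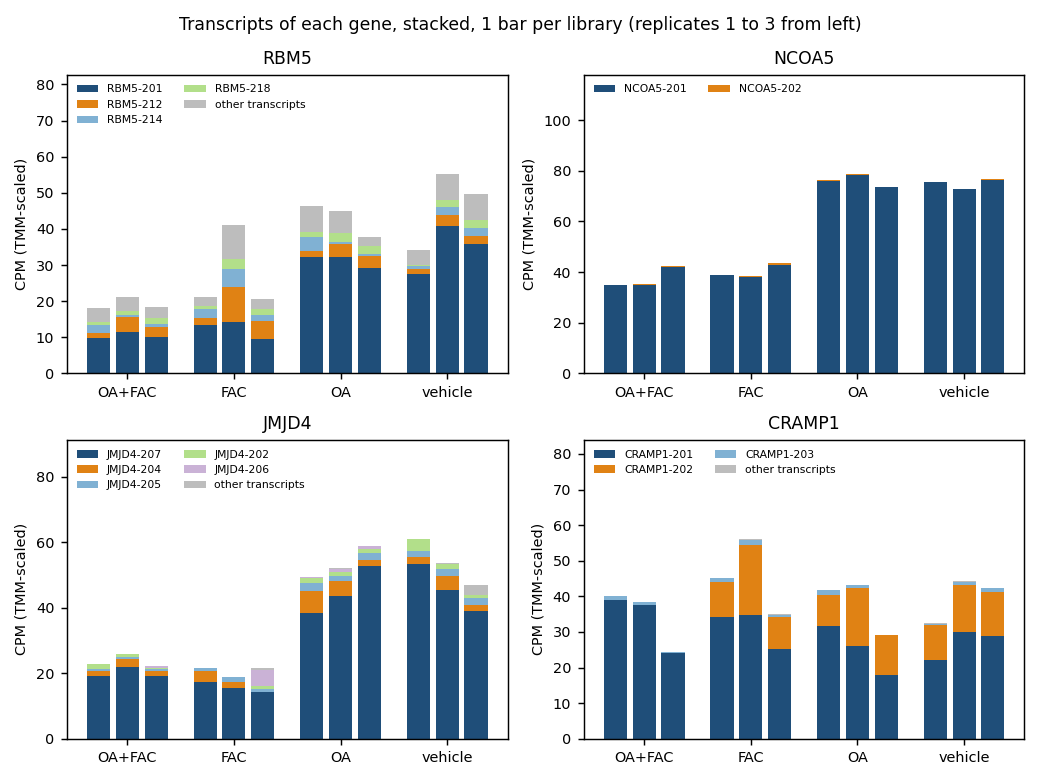
Transcripts of each gene stacked to the gene's total in TMM-scaled CPM (vertical axes, linear, from 0), 1 bar per library and 3 per group. The dark bars show that RBM5-201, NCOA5-201 and JMJD4-207 carry the differences between libraries with and without FAC, and CRAMP1-202 is at 0 in OA+FAC.

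NCOA5 had nearly all its counts on NCOA5-201, which held 99.2% ± 0.907 of them in OA+FAC, 99.0% ± 1.28 in FAC, 99.8% ± 0.157 in OA and 99.9% ± 0.207 in vehicle (SD, n = 3 each). NCOA5-201 measured 38.7, 38.1 and 42.6 CPM in FAC libraries, against 75.6, 72.9 and 76.5 CPM in vehicle libraries. In OA+FAC it measured 34.8, 34.8 and 42.2 CPM, against 76.1, 78.5 and 73.6 CPM in OA. Libraries with and without FAC did not overlap. The log2 fold changes were -0.91 (SE 0.11) for FAC against vehicle and -1.03 (SE 0.11) for OA+FAC against OA. The call in OA+FAC against OA was lost without the first or second library of either group and kept without the third of either. It was also lost with the replicate number as a block, where the log2 fold change was -1.04. NCOA5-201 has 2522 of its 3190 stretches of 31 bases to itself within the gene, so little of it depends on dividing reads. The short NCOA5-202, which lacks exon 2, had 0, 5 and 18 counts in FAC, against 0, 0 and 5 in vehicle, and 0, 11 and 4 in OA+FAC, against 4, 3 and 0 in OA. Its gain equalled 1.01% of the loss of NCOA5-201 in FAC against vehicle and 0.44% in OA+FAC against OA. Without the third FAC library the first was 0.11%, and without the second OA+FAC library the other was 0.0148%.

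JMJD4 was lower with FAC. The gene total measured 21.3, 18.9 and 21.4 CPM in FAC libraries, against 58.8, 53.1 and 46.9 CPM in vehicle libraries. In OA+FAC it measured 22.3, 25.4 and 22.9 CPM, against 48.9, 51.4 and 59.7 CPM in OA. Libraries with and without FAC did not overlap. The log2 fold changes of the gene were -1.37 (SE 0.12) for FAC against vehicle and -1.18 (SE 0.12) for OA+FAC against OA, and both calls held in all 13 alternative fits. Most of the difference lay in JMJD4-207. It measured 17.2, 15.6 and 14.4 CPM in FAC libraries, against 53.2, 45.5 and 39.1 CPM in vehicle libraries. In OA+FAC it measured 19.2, 21.9 and 19.2 CPM, against 38.3, 43.5 and 52.7 CPM in OA. The log2 fold changes were -1.54 (SE 0.17) for FAC against vehicle and -1.16 (SE 0.17) for OA+FAC against OA. The call in FAC against vehicle was lost when any 1 of the 6 libraries was left out, with values from -1.65 to -1.43. All 3 OA+FAC libraries lay above all 3 FAC libraries, both for JMJD4-207 and for the gene total. The log2 fold changes for OA+FAC against FAC were 0.35 (SE 0.17) and 0.20 (SE 0.13), and neither was called. The third FAC library had 4.68 CPM on JMJD4-206, and counts can pass between JMJD4-206 and JMJD4-207 by estimation. The part of this in the JMJD4-207 difference was not tested.

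The share of JMJD4-207 in the gene was 85.0% ± 0.989 in OA+FAC, 76.5% ± 8.69 in FAC, 83.6% ± 5.84 in OA and 85.3% ± 2.04 in vehicle (SD, n = 3 each). The low FAC value came with the third FAC library, where JMJD4-206 had 78 counts, against 0 in the other 2 FAC libraries and 0 to 19 in the 9 others. JMJD4-207 has no stretch of 31 bases that JMJD4-206 lacks, so counts can pass between these 2 by estimation. JMJD4-204 and JMJD4-205 are the 2 tested transcripts annotated as retained introns. JMJD4-204 measured 3.36, 1.64 and 0 CPM in FAC, against 2.17, 4.31 and 1.81 CPM in vehicle, and 1.43, 2.31 and 1.45 CPM in OA+FAC, against 6.76, 4.63 and 1.99 CPM in OA. Its groups overlapped in both pairs, with log2 fold changes of -0.73 (SE 1.15) and -1.36 (SE 1.16). JMJD4-205, which keeps the introns after exons 3 and 4, was at 1.12 ± 0.417 CPM in FAC, against 2.04 ± 0.167 CPM in vehicle, and at 0.711 ± 0.138 CPM in OA+FAC, against 1.99 ± 0.472 CPM in OA. JMJD4-202, which skips the 48 bases shown above, measured 0.340 ± 0.589 CPM in FAC, against 1.95 ± 1.31 CPM in vehicle, and 0.864 ± 0.517 CPM in OA+FAC, against 1.37 ± 0.142 CPM in OA (SD, n = 3 each). Gains in other transcripts equalled 4.41% of the losses in FAC against vehicle (1.523 CPM), 0% without the third FAC library, and 0.0646% in OA+FAC against OA. For scale, JMJD4 gains in OA against vehicle, where no member was called, came to 2.327 CPM and losses to -2.639 CPM.

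JMJD4 shares 2323 exonic bases with SNAP47, a neighbour on the opposite strand that encodes a SNARE protein, and 50.9% of its stretches of 31 bases occur in SNAP47 transcripts. SNAP47 measured 54.1 ± 4.68 CPM in FAC, against 62.0 ± 5.20 CPM in vehicle, and 49.5 ± 5.20 CPM in OA+FAC, against 58.4 ± 3.39 CPM in OA. Its log2 fold changes were -0.20 (SE 0.12) and -0.24 (SE 0.12), and it was called in neither comparison (edgeR adjusted p = 0.587 and 0.346).

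**Figure D4:**
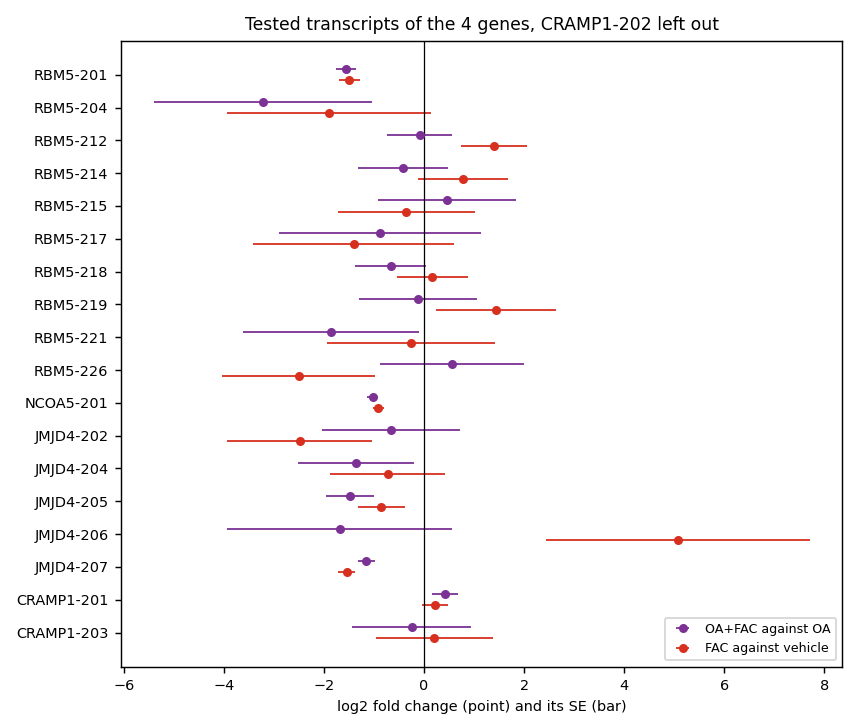
Log2 fold changes (points) and their SE (bars) of 18 of the 19 tested transcripts, for OA+FAC against OA and for FAC against vehicle, with CRAMP1-202 left out because its OA+FAC libraries are at 0. RBM5-201, NCOA5-201 and JMJD4-207 have short bars below 0 in both comparisons, and most other transcripts have longer bars.

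CRAMP1 as a gene did not separate the groups. Its total was 44.7, 55.8 and 34.9 CPM in FAC, against 31.4, 44.0 and 42.6 CPM in vehicle, and 39.3, 37.7 and 25.0 CPM in OA+FAC, against 41.5, 42.5 and 29.4 CPM in OA. The log2 fold changes were 0.20 (SE 0.22) and -0.15 (SE 0.22). The lowest library of each group was the third OA+FAC, the third FAC, the third OA and the first vehicle library. Those are the libraries in which long transcripts read low, and CRAMP1-201 is 7671 bases long. The part of that trend in the CRAMP1 values was not tested.

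CRAMP1-201 measured 39.1, 37.6 and 24.2 CPM in OA+FAC, against 31.5, 26.0 and 17.9 CPM in OA, and 34.2, 34.6 and 25.2 CPM in FAC, against 22.2, 30 and 28.8 CPM in vehicle. The groups overlapped, with log2 fold changes of 0.42 (SE 0.26) for OA+FAC against OA and 0.21 (SE 0.26) for FAC against vehicle. CRAMP1-202 had an estimated count of 0 in all 3 OA+FAC libraries. It had 151, 377 and 151 counts in FAC, 151, 301 and 151 in OA and 151, 226 and 226 in vehicle. CRAMP1-202 therefore held 27.8% ± 7.0 of the gene's counts in FAC, 32.5% ± 9.77 in OA and 29.5% ± 0.258 in vehicle, and 0% in OA+FAC, where CRAMP1-201 held 98.4% ± 1.05. CRAMP1-202 was also called in the usage test in OA+FAC against OA (0.108% of all transcripts called), in OA+FAC against FAC (0.145%) and in the interaction (0.0935%).

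The 9 nonzero values of CRAMP1-202 were not spread as counts usually are. Each was 2, 3, 4 or 5 times a step of 75.38 counts, with a largest departure of 0.519 counts at a tolerance of 1. Among 24037 transcripts with counts in at least 5 libraries and a highest count of at least 100, 28 (0.117%) had values on such steps of at least 20 counts. CRAMP1-202 is 101 bases longer than CRAMP1-201, and its length of 7772 bases is 76.95 times that difference. It has 101 stretches of 31 bases that CRAMP1-201 lacks, and CRAMP1-201 has 0 that CRAMP1-202 lacks. Counted in steps, the groups held 0 in OA+FAC, 9 in FAC, 8 in OA and 8 in vehicle. Whether a step stands for 1 counted event was not tested, so no fold is given against the OA+FAC libraries. CRAMP1 shares 4156 exonic bases on the same strand with AL031708.1, which measured 0.956 ± 0.586 CPM in OA+FAC and 2.14 ± 0.647 CPM in FAC, against 1.66 ± 1.41 CPM in OA and 2.48 ± 1.58 CPM in vehicle. Losses in CRAMP1 transcripts came to -12.26 CPM in OA+FAC against OA and gains, nearly all in CRAMP1-201, to 8.55 CPM, or 69.7%. With 1 library left out that share ran from 37.7%, without the third OA library, to 110.3%, without the third OA+FAC library. It was 46.5% without the first OA+FAC library. Since CRAMP1-201 has no stretch of its own against CRAMP1-202, counts can pass between these 2 by estimation. The gains therefore cannot show whether CRAMP1-201 itself rose, and they are no measure of compensation.

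**Figure D5:**
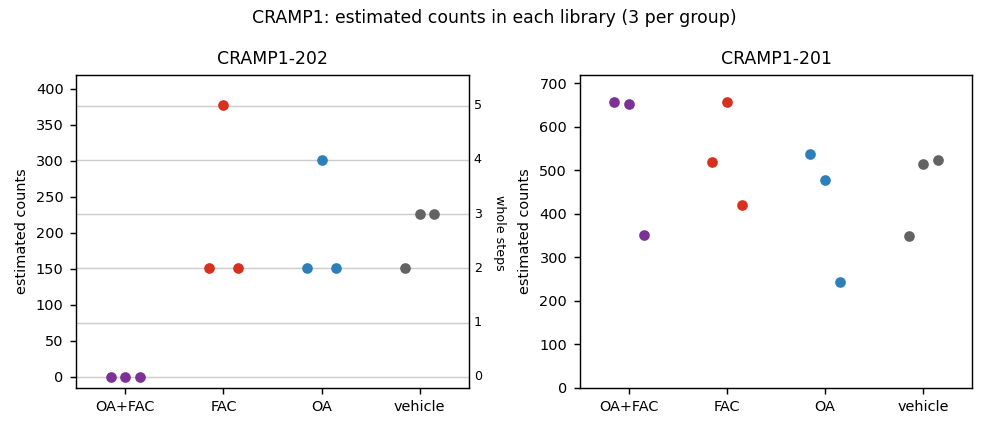
Estimated counts of CRAMP1-202 and CRAMP1-201 in each library (vertical axes, linear), with grey lines at whole steps of 75.38 counts for CRAMP1-202. Its values sit on the lines at 2 to 5 steps in FAC, OA and vehicle and at 0 in OA+FAC, while CRAMP1-201 spreads from 243 to 657 counts.

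OA against vehicle asks what oleic acid does without iron. Whether the choice of genes used it is not stated, so it too is a description for the members. In edgeR 0 of the 19 transcripts, 0 of 18 in the usage test and 0 of the 4 genes were called, and 0 transcripts and 1 usage value of the members had an unadjusted p under 0.05. DESeq2 and limma-voom also called 0 transcripts and 0 genes among the members. Across all features 0% of transcripts, 0.0686% of transcripts in the usage test and 0% of genes were called, with 1088 transcripts, 1894 usage values and 118 genes at an unadjusted p under 0.05. RBM5-201 had a log2 fold change of -0.15 (SE 0.20), RBM5-212 of 0.37 (SE 0.65), NCOA5-201 of 0.02 (SE 0.11), JMJD4-207 of -0.04 (SE 0.16), CRAMP1-201 of -0.10 (SE 0.26) and CRAMP1-202 of 0.05 (SE 0.38). The usage value was that of JMJD4-206, at 2.67 on the log2 scale above the rest of its gene, and it was not called.

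Genes of the same families and pathways were read from the gene table, of which 1.19% was called in FAC against vehicle, 2.21% in OA+FAC against OA and 0% in the other comparisons. The lists were drawn up with earlier results of these data known, so their counts and values are descriptions, given without p-values. Of the RBM5 relatives, RBM10 was called lower in FAC against vehicle (log2 fold change -0.60, SE 0.10) and in OA+FAC against OA (-0.51, SE 0.10). RBM6 was not called. None of the 3 known RBM5 targets, FAS, CASP2 and CFLAR, and none of the 6 other NCOA genes was called in any comparison. These values are gene totals, which do not show splicing, so the splicing of the 3 targets was not tested. Of 9 other JmjC proteins, 2 were called lower in both FAC comparisons. HIF1AN, which hydroxylates HIF, had -0.55 (SE 0.12) in FAC against vehicle and -0.64 (SE 0.12) in OA+FAC against OA. RIOX2, a ribosomal protein hydroxylase, had -0.62 (SE 0.12) and -0.66 (SE 0.12). The list's median was -0.30 and -0.29, against 0.01 and 0.00 over all genes. Neither ETF1, which encodes eRF1, nor its partner GSPT1 was called. Of 7 linker histone genes, 4 were tested and 0 called.

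Of 25 genes known for regulated splicing, retained introns or poison exons, 2 rose and 3 fell in FAC against vehicle, where 1.19% of all genes were called, and 2 rose and 4 fell in OA+FAC against OA, where 2.21% were. This list too was drawn up with earlier results of these data known. Its counts beside those shares are therefore a description and no sign of enrichment. The kinases CLK3 and CLK4, which phosphorylate SR proteins, rose. CLK3 had log2 fold changes of 1.48 (SE 0.12) and 1.47 (SE 0.12) in the 2 comparisons, and CLK4 had 1.36 (SE 0.14) and 1.28 (SE 0.14). MAT2A, which makes S-adenosylmethionine, fell, with -1.84 (SE 0.21) and -2.17 (SE 0.22). The splicing factors SRSF6 (-1.15 and -1.10) and SRSF7 (-0.73 and -0.59) fell in both comparisons, and OGT, which adds O-linked N-acetylglucosamine to proteins, fell in OA+FAC against OA (-0.98, SE 0.22). No gene of these lists was called in OA against vehicle, in OA+FAC against FAC or in the interaction.

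The transcripts of other genes most like the leading transcript of each gene were found by Pearson's correlation of log2 CPM over the 12 libraries, among 28069 to 28071 transcripts whose log2 CPM averaged 1 or more. These values are descriptions, since all points share the libraries and 4 treatments. RBM5-201 was most like MAT2A-201 (0.976), RBM4B-206 (0.968) and CCDC8-201 (0.967). NCOA5-201 was most like TOE1-201 (0.980), MAEA-202 (0.973) and WTAP-201 (0.970). JMJD4-207 was most like PIP5K1C-201 (0.975), CCDC71-201 (0.969) and FN3KRP-201 (0.966). CRAMP1-201 was most like MAST4-202 (0.953), MICAL3-207 (0.928) and BRD2-213 (0.912).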

How the data were processed

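Poly-A selected RNA libraries were sequenced after Illumina TruSeq preparation, per the labels' protocols. Reads were handled with bcl2fastq 2.19 and kallisto 0.46.1, with sleuth 0.30.0 and the build GRCh38.p12 (hg38) also listed, per the submitters' processing notes. Kallisto's options, transcript set and strand setting are not stated there. The authors deposited estimated counts, 1 table per gene symbol and 1 per transcript, whose values are whole numbers, so no rounding was needed.

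Transcripts were matched by Ensembl ID to GENCODE 29 (169797, or 90.0%, found), including all 43 members, of which 1 (NCOA5-201) has another version number. The gene totals of the members equalled their transcript sums within 2 counts. The members, gene lists and alternatives were chosen with earlier results of these data known. Features were filtered by filterByExpr, scaled by TMM and fitted over all 12 libraries with edgeR 4.0.16 (R 4.3.3), and transcript usage was tested with diffSpliceDGE. This kept 51464 transcripts and 14209 genes. Same-numbered libraries deviated together, each of 3 pairs above 0.1, between OA+FAC and OA (0.296 to 0.612), OA+FAC and FAC (0.221 to 0.340) and FAC and OA (0.165 to 0.332), so the numbers were taken to pair these groups, on the correlations alone. They were not for the pairs with vehicle, which correlated at 0.23 to 0.30 for the second libraries and from -0.07 to 0.24 for the others. The deviations are taken from a mean of 3 libraries, so the 3 correlations between any 2 groups are not independent. The third OA and OA+FAC libraries, which stood apart, share a trend with transcript length. The part of that trend in these correlations was not tested. The main fits, which gave the SE and calls in the Results, had no term for the replicate number. A block for it was an alternative. P-values were adjusted over each whole table. Uncertainty in dividing reads between transcripts is not part of the spread used here. A transcript was described in every library if tested and at 10% of its gene's counts in some group, or called. JMJD4-206, JMJD4-205, JMJD4-204, JMJD4-202, NCOA5-202, RBM5-207, RBM5-211 and RBM5-226 were named after their values were seen. Alternatives used limma 3.58.1 and DESeq2 1.42.0, other filters and scalings, and left-out libraries. The fits were also run on simulated counts, drawn independently for each library. Those counts hold no uncertainty in dividing reads, no shared deviations and no libraries that stand apart, so they do not test these limits.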

Additional observations from a re-analysis of the deposited data

Results flagged for a closer look

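CRAMP1-202 is the member whose response to FAC differed with and without oleic acid in the fitted interaction. The difference in CPM between OA+FAC and OA (0 and 12.1 CPM), less that between FAC and vehicle (13.0 and 11.7 CPM), was -13.4 CPM. Whether the choice of genes used this comparison is not stated, so the value is a description. The estimated counts of CRAMP1-202 lie on steps of 75.38 counts, and the part of those steps in the difference was not tested. The interaction call was lost without the third OA and the third OA+FAC libraries, with the replicate number as a block and by limma-voom. With 1 library left out, a member transcript was called only without the first OA+FAC library or without the second FAC library. Leaving out any other library lost the call.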

How the results depend on the processing

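The number of member transcripts called changed with the fit. In FAC against vehicle it was 1, and it became 0 with no filter and with only the libraries of the 2 groups, 2 by limma-voom and without the third OA and OA+FAC libraries, and 3 by DESeq2. In OA+FAC against OA it was 2, and it became 1 with no filter and by limma-voom, 0 with only the 2 groups and 4 by DESeq2. In OA+FAC against FAC it was 1, and it became 0 without the third OA and OA+FAC libraries, with only the 2 groups and by limma-voom. In the interaction it was 1, and it became 0 without those libraries and by limma-voom. With 1 library left out the counts ran from 0 to 0 in FAC against vehicle, from 1 to 2 in OA+FAC against OA, and from 0 to 1 in OA+FAC against FAC and in the interaction. The gene counts stayed at 2 to 3 in both FAC comparisons, the usage counts did not change, and OA against vehicle gave 0 in every fit. The share of all transcripts called moved too. DESeq2 called 403 (0.783%) in FAC against vehicle, 527 (1.02%) in OA+FAC against OA, 241 (0.394%) in OA+FAC against FAC and 194 (0.274%) in the interaction, against 4, 6, 1 and 1 in edgeR. Without the third OA and OA+FAC libraries edgeR called 35 (0.063%) in FAC against vehicle and 25 (0.045%) in OA+FAC against OA. In those 2 comparisons limma-voom called 7 and 5, the fits with no filter 6 and 6, those with only the 2 groups 2 and 0 and those with the replicate block 2 and 4. Some of these fits use fewer libraries. The cause of the changes was not tested for any of the fits.

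With the replicate number as a block, the calls became 0 in FAC against vehicle (JMJD4-207 lost, -1.54), 1 in OA+FAC against OA (NCOA5-201 lost) and 0 in the interaction (CRAMP1-202 lost). The block changed no other call of a member transcript. It called 431 genes (3.03%) in FAC against vehicle and 740 (5.21%) in OA+FAC against OA, against 169 and 314 without it. The members among these genes stayed at 2 and 3. With vehicle the numbers did not pair throughout: deviations of same-numbered libraries correlated at -0.07 to 0.301 there, and at 0.23 to 0.30 for the second libraries. A library correlated best with its own number in 26 of 36 comparisons with another group, and 5 of 12 libraries did so in all 3.

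Some log2 fold changes changed sign. RBM5-212 in OA+FAC against OA was 0.0579 without the third OA and OA+FAC libraries and ran from -0.55 to 0.27 with 1 library left out. RBM5-214 in OA+FAC against OA ran from -1.24 to 1.15, CRAMP1-202 in FAC against vehicle from -0.30 to 0.34, and the CRAMP1 gene in OA+FAC against OA from -0.30 to 0.027. Dividing counts by transcript length lowered the shares (OA+FAC, FAC, OA and vehicle) to 33.4%, 30.1%, 47.9% and 48.4% for RBM5-201, to 96.6%, 95.6%, 99.3% and 99.5% for NCOA5-201 and to 81.9%, 53.3%, 54.9% and 51.1% for CRAMP1-201. For JMJD4-207 it gave 76.2% in OA+FAC, 68.5% in FAC, 74.2% in OA and 79.5% in vehicle. With only tested transcripts counted, RBM5-201 held 59.45% in OA+FAC, NCOA5-201 100% in OA and CRAMP1-201 68.3% in vehicle. Depth limits the minor transcripts most, since 11 RBM5 and 5 CRAMP1 transcripts never reached 10 counts in a library.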
